A study of Mus musculus with 18 samples.

Results

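GATA6 was recorded at 42403 regions in mouse embryonic stem (ES) cells driven towards primitive endoderm (PrE), and 2044 of them (4.82%) were Late regions that held SOX17, held no pluripotency transcription factor (PTF) and lay in facultative heterochromatin. The members were selected on 4 classes that the authors had assigned to each region. GATA6 binding had to fall in the Late cluster (14243 regions), no peak of OCT4, SOX2 or ESRRB could be recorded (12558 of these), SOX17 had to be bound (6144 of these) and the histone state in undifferentiated ES cells had to be facultative heterochromatin. Late gain of GATA6, presence of SOX17, absence of PTFs and the histone state are therefore properties of the selection and not results. The signal values behind these classes came from libraries outside the series and were not used, and the labels themselves were not checked against binding or histone signal.

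The cells were KH2 ES cells of a C57BL/6 x 129/Sv background that carried a Gata6 expression cassette switched on by doxycycline (Dox), grown with serum and LIF on inactivated embryonic fibroblast feeders. The 18 MNase-seq libraries comprised untreated cells (d0) and cells after 8, 16, 24, 48 and 96 h with 1 µg/mL Dox, in 3 replicates each. No value of an MNase library is analysed here, because the deposited region table carries classes, positions and motifs that were derived from the binding and accessibility assays of the same study. The columns used give no read counts, and the read depth behind each class was not analysed. The response to Oct4 knockdown was measured by the authors in a single Gata6-inducible clone, in which Oct4 or control siRNAs were delivered at the start of Dox and GATA6 binding was compared after 48 h.

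GATA6 is a zinc finger transcription factor that specifies PrE, the extraembryonic lineage that gives rise to visceral and parietal endoderm. SOX17 is an HMG-box factor of endoderm that is induced downstream of GATA factors and bends DNA at short motifs with an ACAATG-like core. Facultative heterochromatin is silent chromatin, typically marked by the Polycomb modification H3K27me3, that can be reactivated in a suitable lineage. OCT4, encoded by Pou5f1, maintains pluripotency together with SOX2.

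The DNA at these regions is shown first for the 6 members with the highest summed score of the best GATA6 and the best SOX17 motif in the window that reached 100 bp to either side of the GATA6 summit. Scores are log-odds matches to the JASPAR matrices, and the summed scores ran from 26.75 to 27.49. All coordinates and letters are from GRCm38 (mm10), plus strand, and the capitals mark the best GATA6 motif and the best SOX17 motif. Each line opens with the nearest protein-coding gene.
Nrbf2, chr10:67381017-67381056: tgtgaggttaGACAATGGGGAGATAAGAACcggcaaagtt
Rarb, chr14:16776597-16776650: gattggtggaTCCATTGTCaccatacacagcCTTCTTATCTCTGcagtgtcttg
Sfmbt2, chr2:10541659-10541737: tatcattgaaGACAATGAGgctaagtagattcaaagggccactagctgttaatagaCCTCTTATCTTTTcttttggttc
Pirt, chr11:66729658-66729746: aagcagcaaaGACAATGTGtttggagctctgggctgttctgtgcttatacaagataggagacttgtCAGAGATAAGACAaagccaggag
Efnb2, chr8:8362249-8362355: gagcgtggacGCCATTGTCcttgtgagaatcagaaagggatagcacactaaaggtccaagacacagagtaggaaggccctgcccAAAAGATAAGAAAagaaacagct
Cdh11, chr8:102938050-102938102: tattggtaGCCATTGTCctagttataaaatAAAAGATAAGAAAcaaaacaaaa
The member nearest to Nrbf2 carried both motifs in 1 run of capitals, so that the SOX17 and GATA6 motifs overlapped. Each GATA6 motif of this group held the letters AGATAA on one strand or the other, and each SOX17 motif held ACAATG or its reverse complement CATTGT. The summits lay in introns at 4 of these members (within Rarb, within Sfmbt2 and at 2 sites within non-coding genes) and between genes at the other two. All 6 were closed at d0, and GATA6 binding was raised by Oct4 knockdown at the members near Pirt and Efnb2 and unchanged at the other four.

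A further 3 members are shown because GATA6 binding at them was raised by Oct4 knockdown and they had the next highest summed scores (26.62, 26.42 and 26.22).
Sema3g, chr14:31233079-31233141: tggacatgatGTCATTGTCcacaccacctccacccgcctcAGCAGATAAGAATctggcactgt
2010111I01Rik, chr13:63117668-63117726: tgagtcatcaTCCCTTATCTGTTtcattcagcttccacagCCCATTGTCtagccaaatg
Gpc6, chr14:117014059-117014197: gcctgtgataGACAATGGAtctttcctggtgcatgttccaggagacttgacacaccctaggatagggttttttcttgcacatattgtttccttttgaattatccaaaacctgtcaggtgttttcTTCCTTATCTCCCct
The distance between the motifs differed among them, and the GATA6 motif lay nearer to the summit than the SOX17 motif at the members of Sema3g and 2010111I01Rik but farther away at the member of Gpc6. The first was intergenic at a distance of 15271 bp from a start of Sema3g, and the others lay in introns of 2010111I01Rik and Gpc6. All were closed at d0.

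The 2044 members were spread over chromosomes 1 to 19 and X, from 26 on X (2.10% of the GATA6 regions there) to 160 on chromosome 1 (5.18%), and made up 6.19% of the regions of chromosome 3, the highest share. Their width was 506 ± 229 bp (SD, n = 2044), with a median of 452 bp and a range of 185 to 2235 bp. Late regions in facultative heterochromatin without SOX17 and without PTFs (n = 2493, the comparison group without SOX17 below) were narrower, at 360.3 ± 131 bp. Late SOX17-bound regions without PTFs were wider in the naive state (631 ± 283 bp, n = 1541) and narrower in constitutive heterochromatin (407 ± 169 bp, n = 691). Width follows from the GATA6 peak calls that also fed the selection, so these widths are a description, and results that moved with width are given with their within-width value.

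Chromatin at the members was shut before induction. In the accessibility class that the authors derived from ATAC-seq of untreated cells, 2003 of 2044 members were closed (98%, 95% Wilson interval 97.3 to 98.5) and 41 were moderate (2.01%). None of the 2044 was in the accessible class, an upper bound of 0.188% by the same interval, whereas 7.43% of all GATA6 regions were accessible. That class was equally empty in the group without SOX17 and in Late SOX17-bound regions of the naive and constitutive states. The naive regions were closed at 99.2%, the constitutive regions at 92.8% and all GATA6 regions at 61.3%. The group without SOX17 was closed at 98.7% (98.2 to 99.1), and the log2 odds ratio of members against it, -0.65 (-1.33 to 0.02), did not pass the test (Fisher's exact test, adjusted p = 0.105). Within 10 bins of width the value was -1.0 (Mantel-Haenszel estimate, -1.72 to -0.28), so the call depended on width.

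In the class assigned by the authors, knockdown of Oct4 raised GATA6 binding at 673 of the 2044 members and lowered it at 13. The raised share was 32.9% (30.9 to 35.0), beside 8.57% of all 42403 regions, and the lowered share was 0.636% (0.372 to 1.09), beside 6.25% of all regions. In the group without SOX17, 152 of 2493 regions were raised (6.10%, 5.22 to 7.11). The log2 odds ratio of members against this group was 2.92 (2.65 to 3.19; two-sided Fisher's exact test, adjusted p = 1.03e-123), with the same direction on 20 of 20 chromosomes. It was 2.27 within 10 bins of width (1.98 to 2.56), 3.17 among regions with no other region of these classes within 50 kb and 2.91 among regions closed at d0. The lowered share did not differ detectably from the 0.682% (17 regions) without SOX17 (log2 odds ratio -0.10, -1.15 to 0.94, exact adjusted p = 1.00).

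**Figure D1:**
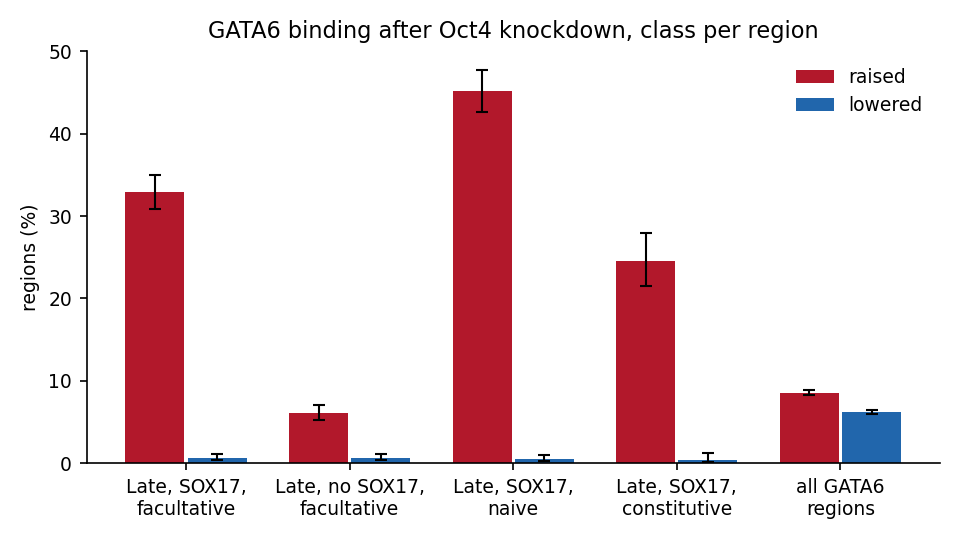
Share of regions (y axis, percent) at which GATA6 binding was raised (red) or lowered (blue) after 48 h of Dox with Oct4 siRNA against control siRNA, in 4 classes of Late regions without PTFs and in all 42403 regions, with 95% Wilson intervals. The raised share was 32.9% in SOX17-bound facultative heterochromatin, 6.10% without SOX17, 45.2% in the naive state and 24.6% in constitutive heterochromatin, and the lowered share was below 1% in all 4 Late classes.

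Among SOX17-bound Late regions, the response differed between histone states. In the naive state 696 of 1541 regions were raised (45.2%, 42.7 to 47.7), and the members lay below it at a log2 odds ratio of -0.75 (-0.94 to -0.55, exact adjusted p = 4.49e-13, 19 of 20 chromosomes). Within width bins this value shrank to -0.34 (-0.55 to -0.13). In constitutive heterochromatin 170 of 691 were raised (24.6%, 21.5 to 27.9), and the members lay above it by 0.59 (0.31 to 0.87, exact adjusted p = 1.22e-04, 16 of 19 chromosomes). This difference was no longer called within width bins (0.16, -0.13 to 0.46).

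Width differed between the members that responded and those that did not. The raised members were 591 ± 256 bp wide (n = 673), the unchanged members 464 ± 202 bp (n = 1358) and the lowered members 475 ± 206 bp (n = 13). Split by width into 4 classes of about equal size, from the narrowest to the widest, 19.6% (100 of 511), 24.6% (127 of 516), 36.2% (183 of 506) and 51.5% (263 of 511) of members were raised. Over the same width limits the shares without SOX17 were 3.38%, 7.68%, 8.81% and 21.3%. In every width class the interval of the members lay above that of the regions without SOX17. By position the raised share was 24.8% (18 to 33.2) for summits within 1 kb of a transcript start, 31.2% in exons, 33.3% in introns and 33.7% between genes. By chromosome it ran from 15.4% on X (4 of 26) and 17.2% on 19 (10 of 58) to 46.8% on 4 (44 of 94).

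**Figure D2:**
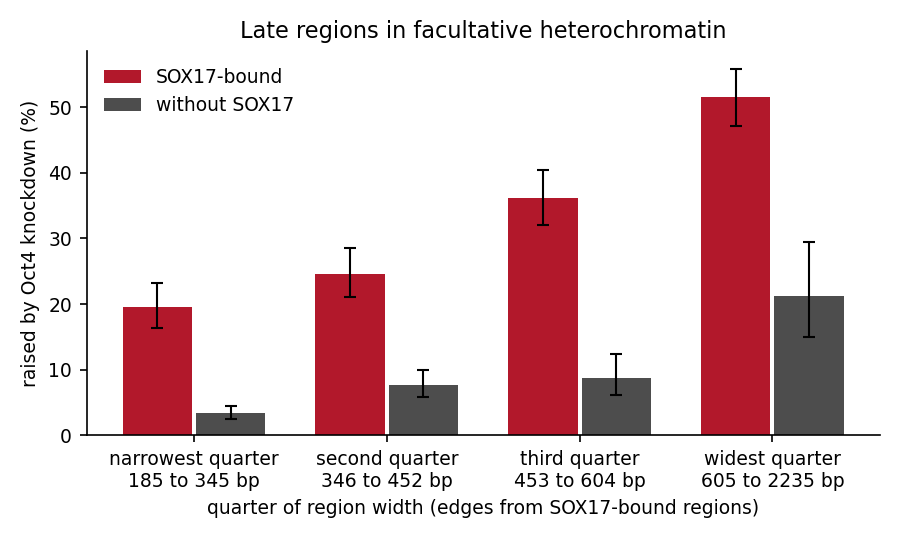
Share of Late facultative heterochromatin regions raised by Oct4 knockdown (y axis, percent, 95% Wilson intervals) by class of region width (x axis, bp, limits set on the SOX17-bound regions), for SOX17-bound regions (red) and regions without SOX17 (grey). The share rose from 19.6% to 51.5% with SOX17 and from 3.38% to 21.3% without it.

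The members differed from the group without SOX17 in the DNA under the summit. These groups were separated by the presence or absence of a SOX17 peak. A difference in SOX17 motifs may therefore follow from the selection. A SOX17 motif lay in the summit window of 1280 of 2044 members (62.6%, 60.5 to 64.7) and of 970 of 2493 regions without SOX17 (38.9%, 37.0 to 40.8). The log2 odds ratio was 1.40 (1.22 to 1.57, exact adjusted p = 2.51e-56, 20 of 20 chromosomes), and it lay between 1.34 and 1.67 under the alternatives. In 3887 control windows placed 3 kb to either side of the members, 30.6% (29.2 to 32.1) held the motif. The 4815 control windows of the regions without SOX17 held it in 28.8% (27.5 to 30.1), and the summit windows of all 42403 regions in 43.1% (42.6 to 43.6). Where a SOX17 motif was present, its best score averaged 9.94 ± 1.62 in members (n = 1280) and 9.51 ± 1.60 without SOX17 (n = 970), a difference of 0.43 (95% interval 0.30 to 0.56).

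The GATA6 motif followed the opposite order. It was present in 1572 members (76.9%, 75 to 78.7) against 2069 regions without SOX17 (83.0%, 81.5 to 84.4). The log2 odds ratio was -0.55 (-0.76 to -0.34, exact adjusted p = 1.21e-06, 17 of 20 chromosomes). Control windows of the members held it in 33.9% (32.4 to 35.4). The summit windows of all 42403 regions held it in 77.1% (76.7 to 77.5), close to the member share. Counted over the whole region with the deposited motif calls, in which the wider members have more sequence, the shares were 88.4% and 89.6% and the difference was not called (-0.18, exact adjusted p = 0.254). The best GATA6 score in the window averaged 9.63 ± 2.28 in members (n = 1572) and 10.00 ± 2.35 without SOX17 (n = 2069), a difference of -0.36 (-0.51 to -0.21).

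**Figure D3:**
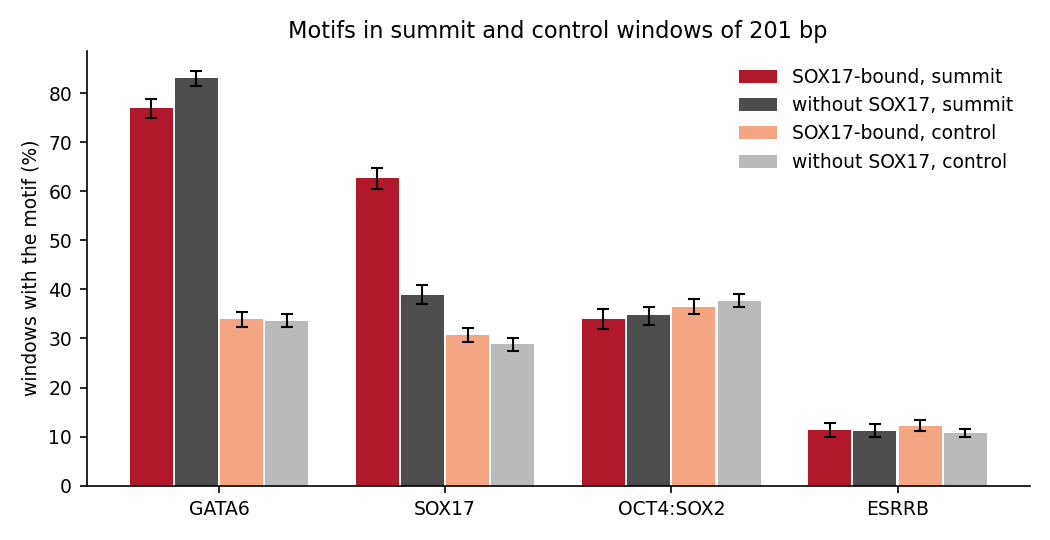
Share of summit windows, 100 bp to either side, with each motif (y axis, percent, 95% Wilson intervals) at the summits of SOX17-bound members (red) and of regions without SOX17 (dark grey), and in their control windows 3 kb away (light colours). At summits the SOX17 motif was present in 62.6% against 38.9% and the GATA6 motif in 76.9% against 83.0%, while the OCT4:SOX2 motif was present in 34.0% of member summits and 36.5% of their control windows.

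The PTF motifs showed no such enrichment. Members and the group without SOX17 were selected for lacking a PTF peak, and the members for having a SOX17 peak. This contrast may therefore follow from the selection. The composite OCT4:SOX2 motif, the joint site of the pluripotency pair, was found in 34.0% of member windows (32.0 to 36.1), 34.7% of windows without SOX17 and 36.5% of control windows (35.0 to 38.1). Members did not differ detectably from the group without SOX17 (log2 odds ratio -0.04, -0.22 to 0.14, exact adjusted p = 0.746). Over whole regions, which were wider in the members, the ratio was 0.49 (exact adjusted p = 5.25e-08), and within width bins of the windowed comparison it was 0.01. ESRRB motifs were present in 11.4% (10.0 to 12.8) of member windows and 12.2% (11.2 to 13.3) of their control windows. The summit windows of all 42403 regions held the OCT4:SOX2 motif in 41.8% and the ESRRB motif in 14.9%.

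Short letter matches gave the same order without a scoring matrix. ACAATG, the SOX17-type core, on either strand, was present in 40.8% of member windows (38.7 to 42.9), 20.3% of windows without SOX17 (18.7 to 21.9) and 23.0% of the windows of all 42403 regions. ACAAAG, a core shared by other SOX and TCF factors, was present in 35.2%, 25.8% and 29.0%. The letters AGATAA, the GATA core, were found in 50% of members (47.8 to 52.1), 57.6% without SOX17 (55.6 to 59.5) and 54.3% of all regions. In naive and constitutive SOX17-bound Late regions ACAATG was present in 43.9% and 46.3%, and ACAAAG in 38.2% and 39.7%. AGATAA was present there in 55.4% and 47.6%. These 3 searches used different letters, and 1 window can hold more than 1 of them.

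The best SOX17 motifs of the members were themselves varied. The most frequent 4 are shown, none of which occupied more than 2.05% of member windows. They are written 5′ to 3′ along the motif.
SOX17 motif 1: TCCATTGTT
SOX17 motif 2: TTCATTGTT
SOX17 motif 3: TCCATTGTC
SOX17 motif 4: GCCATTGTC
The most frequent occupied 42 of 2044 member windows (2.05%, 1.52 to 2.77) and 12 of 2493 windows without SOX17 (0.481%, 0.276 to 0.839), and the fourth 33 (1.61%) and 8 (0.321%). All 4 contain CATTGT, the reverse complement of ACAATG. The scores were 9.77 and 9.75 for the sequences ending in TT, close to the mean of 9.94 over members, and 12.34 and 12.25 for those ending in TC.

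Both motifs were found together in 974 member windows (47.7%, 45.5 to 49.8), against 30.8% without SOX17 (29.0 to 32.6) and 9.80% of control windows. The log2 odds ratio against the group without SOX17 was 1.03 (0.86 to 1.21, exact adjusted p = 2.50e-30, 20 of 20 chromosomes). The joint share was 52.2% (49.7 to 54.7) in naive and 51.2% (47.5 to 54.9) in constitutive SOX17-bound Late regions, and 32.1% over all GATA6 regions. Whether the motifs met more often than their separate shares give was not tested. GATA6 without SOX17 motif was found in 598 members, SOX17 without GATA6 motif in 306 and neither in 166. In windows with both, the median gap between the best motifs was 35.0 bp, 71 pairs overlapped (7.29%) and 257 were 0 to 20 bp apart (26.4%). No single spacing dominated, since no 10 bp class of gaps held more than 13.2% of the pairs (129 of 974, at 10 to 19 bp). The motifs lay on the same strand in 44.5% of pairs, and the SOX17 motif was the nearer to the summit in 458 of 974 (47.0%), against 39.6% of 768 pairs without SOX17.

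Both motifs centred on the GATA6 summit. The best GATA6 motif lay at a median of 32.0 bp and the best SOX17 motif at a median of 35.0 bp from the member summits, with 71.9% and 68.0% within 50 bp. Without SOX17 binding the medians were 30 and 42.0 bp, and 58.8% of SOX17 motifs lay within 50 bp. Per 100 members, 12.8 SOX17 motifs had their centre in the 20 bp before the summit and 11.7 in the 20 bp after it. In the 20 bp bin centred 230 bp before the summit there were 3.57. Regions without SOX17 had 5.74 and 6.74 SOX17 motifs per 100 in the central bins and 23.4 and 22.4 GATA6 motifs, against 17.4 and 19 GATA6 motifs in the members.

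**Figure D4:**
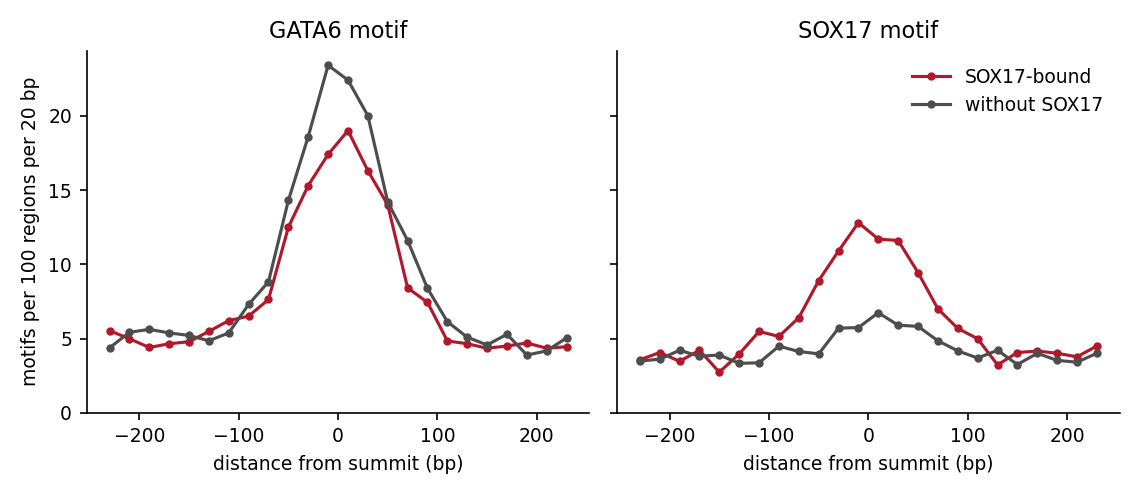
Number of GATA6 motifs (left) and SOX17 motifs (right) per 100 regions and 20 bp (y axis) against distance from the GATA6 summit (x axis, bp), for SOX17-bound members (red) and regions without SOX17 (grey). SOX17 motifs reached 12.8 per 100 members beside the summit against at most 6.74 without SOX17, and GATA6 motifs reached 19 against 23.4.

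The next comparison asked whether the motifs went with the response among the members. Of members with a SOX17 motif in the window 34.6% were raised by Oct4 knockdown (443 of 1280), against 30.1% of those without (230 of 764). The log2 odds ratio of 0.30 (0.02 to 0.58) did not pass the test after adjustment (exact adjusted p = 0.0732, 14 of 20 chromosomes). The value depended on the setting. It was 0.13 with windows of 50 bp to either side (-0.14 to 0.40, exact adjusted p = 0.345), 0.28 among members with no other member within 50 kb (exact adjusted p = 0.182), 0.25 without summits within 1 kb of a start (exact adjusted p = 0.133) and 0.37 within width bins (0.08 to 0.66). With motifs of the whole region it was 0.62 and also passed (exact adjusted p = 8.28e-04). Wider regions have more sequence in that count, and the raised members were the wider. By number of SOX17 motifs in the window, 30.1% were raised with none, 31.7% (28.7 to 34.9) with 1, 39.0% (34.0 to 44.4) with 2 and 48.1% (37.4 to 58.9, 38 of 79) with 3 or more. In the group without SOX17 the corresponding shares were 5.58%, 6.83%, 7.69% and 3.33% (1 of 30).

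No difference in the response was detected between members with and without a GATA6 motif (33.3% with, 31.8% without, log2 odds ratio 0.10, -0.22 to 0.42, exact adjusted p = 0.741). The 166 members with neither motif were raised at 29.5% (23.1 to 36.9), beside 4.05% (2.15 to 7.52) of the 222 regions without SOX17 that lacked both motifs. The raised and unchanged members had best SOX17 scores of 9.86 ± 1.61 (n = 443) and 9.98 ± 1.62 (n = 832), and best GATA6 scores of 9.54 ± 2.24 (n = 523) and 9.68 ± 2.30 (n = 1040).

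The members were also compared with SOX17-bound Late regions of the naive and constitutive states for motifs and base composition, and regions of the other histone states were not compared. The SOX17 motif was present in 66.6% of naive windows and 69.6% of constitutive windows, both above the members (log2 odds ratios of -0.25, exact adjusted p = 0.0308, and -0.45, exact adjusted p = 0.00240). Neither call held with windows of 50 bp to either side (-0.16, exact adjusted p = 0.195, and -0.23, exact adjusted p = 0.176). The GATA6 motif was present in 79.5% of naive and 74.7% of constitutive windows, and neither difference from the members was called (exact adjusted p = 0.109 and 0.324). With the deposited motifs of the whole region both were called, at -0.97 against naive regions (exact adjusted p = 7.11e-08), which were wider than the members, and at 0.43 against constitutive regions (exact adjusted p = 0.0353), which were narrower. Base composition set the naive state apart. The GC content of the window was 44.0 ± 4.60% in members and 40.9 ± 4.31% in naive regions, a difference of 3.09 percentage points (2.80 to 3.38, 20 of 20 chromosomes), while it was 44.0 ± 4.71% in regions without SOX17 and 43.4 ± 4.48% in constitutive heterochromatin. Member windows held 2.0 ± 1.64 CpG sites.

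Few members lay at gene starts. Summits were within 1 kb of a transcript start at 121 members (5.92%, 4.98 to 7.03), in exons at 64 (3.13%), in introns at 973 (47.6%) and between genes at 886 (43.3%). The promoter share was 12.4% over all GATA6 regions. The member share did not differ detectably from the 6.26% of regions without SOX17 (log2 odds ratio -0.09, -0.44 to 0.27, exact adjusted p = 0.746), nor from the 4.67% in the naive and 6.08% in the constitutive state (exact adjusted p = 0.174 and 0.903). The median distance to the nearest start of a protein-coding transcript was 25854 bp, with quartiles of 8778 and 71321 bp. Soft-masked repeats held 259 of the summits (12.7%, 11.3 to 14.2), compared with 15.8% over all regions.

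Most members had another GATA6 region nearby, as did most regions of the comparison groups, and the share over all regions was not computed. Within 50 kb, 1812 of 2044 members (88.6%) had another GATA6 region, 1159 (56.7%, 54.5 to 58.8) had an Early&Constant region and 510 (25%) another member. The share with any other GATA6 region was 88.1% for the group without SOX17, 83.5% in the naive and 89.0% in the constitutive state. An Early&Constant neighbour was present at 50.9% (49.0 to 52.9), 50.9% (48.4 to 53.4) and 58.2% (54.5 to 61.8) of these groups, and none of these differences was tested. Joining members with summits no more than 50 kb apart gave 1758 groups, of which 1534 were single members and 224 held 2 to 6. The largest group, of 6 members over 115549 bp of chromosome 4 (63097831 to 63213379), lay at Ambp, which encodes a plasma protein precursor, Col27a1, a fibrillar collagen, and the kinesin gene Kif12, all named after the group was found. GATA6 binding was raised by Oct4 knockdown at 4 of its 6 members. The 5 members within Mical2, an actin-modifying monooxygenase, and its flank also had 4 raised. None of the 5 at Gata4 and none of the 5 at Lpar3 was raised. These counts are small, come from a few of the 224 groups and were not tested. Beside them stand raised shares of 32.9% of all members and 8.57% of all regions.

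Nearest genes were spread widely, with 1635 protein-coding genes for the 2044 members and 1343 of these genes nearest to a single member. Palld, which encodes the actin-associated protein palladin, had the most, with 8 members inside the gene at 6790 to 68289 bp from a start, of which 1 was raised. Sall1, a zinc finger transcription factor, had 6 members at 99932 to 308520 bp, of which 3 were raised. Foxa2, a forkhead factor of endoderm, Gata4, a GATA factor induced in PrE, Jade1, a subunit of a histone acetyltransferase complex, Lpar3, a lysophosphatidic acid receptor, Maml3, a Notch coactivator, and Mical2 had 5 each. Raised members numbered 4 of 5 at Jade1 and Mical2, 2 at Maml3, 1 at Foxa2 and 0 at Gata4 and Lpar3. Abhd5, a cofactor of lipolysis, and 1700025G04Rik had 4 members each, with 1 and 0 raised. The raised counts per gene were not tested and stand beside 32.9% of all members and 8.57% of all regions. These genes also collected other GATA6 regions, 40 in all at Sall1, 31 at Foxa2 and 21 at Palld.

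Gene lists of the lineage were then read against all protein-coding genes. A member lay within 100 kb of a transcript start of 4072 of 21829 protein-coding genes (18.7%), and a region without SOX17 near 4287 (19.6%). Of 16 PrE regulators 10 had a member (62.5%), and 4 had a region without SOX17. For basement membrane genes, which build the extracellular sheet laid down by PrE, the counts were 8 and 5 of 15. For products of visceral and parietal endoderm they were 14 and 8 of 21. Of 30 developmental regulators bound by Polycomb in ES cells only Nkx6-1 had a member, and 5 had a region without SOX17, while of 15 pluripotency genes 2 had a member (Tfcp2l1 and Fgf4). The lists were chosen with earlier results of these data known, no test was made on them, and genes that lie together share members. Naive and constitutive SOX17-bound regions and GATA6 regions at large were not compared. Whether these shares are particular to the members was therefore not tested.

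**Figure D5:**
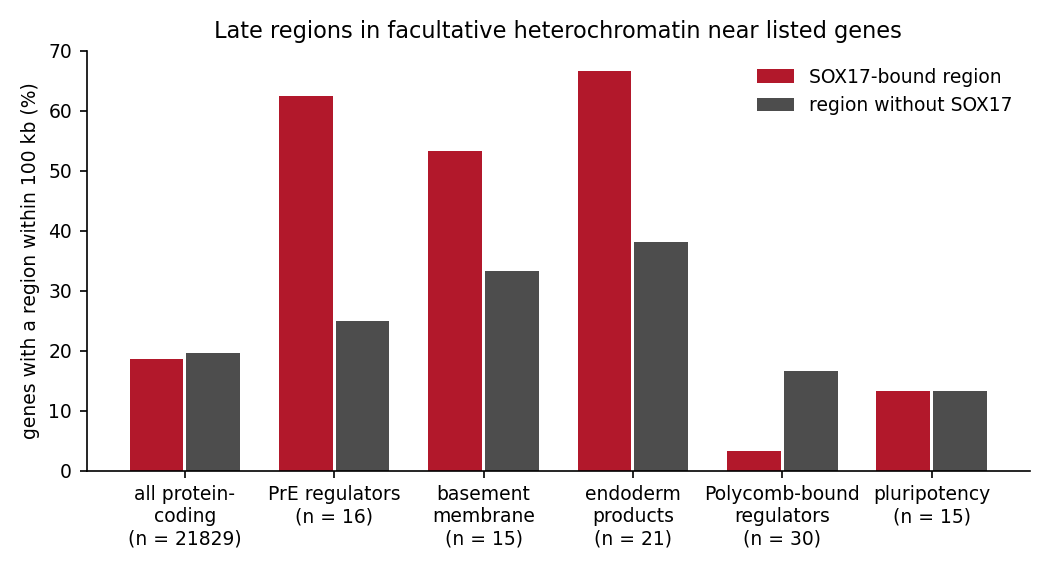
Share of the genes in each list (y axis, percent) with a Late facultative heterochromatin region within 100 kb of a transcript start, for SOX17-bound regions (red) and regions without SOX17 (grey), with the number of genes under each list. SOX17-bound regions were near 62.5% of PrE regulators, 53.3% of basement membrane genes, 66.7% of endoderm products, 3.33% of Polycomb-bound regulators, 13.3% of pluripotency genes and 18.7% of all protein-coding genes.

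Among PrE regulators named here the nearest member lay 1425 bp from a Gata4 start, 8888 bp from Foxa2, 10032 bp from Gata6, 11713 bp from Foxq1, 51449 bp from Eomes, 66157 bp from the endocytic adaptor gene Dab2 and 78426 bp from Sox17. Gata6 itself had 2 members, Sox17 had 1, and none of these 3 was raised by Oct4 knockdown. The single member near Dab2 was raised. Both members near Pdgfra, a receptor tyrosine kinase that marks PrE and is named here after its values were seen, were raised, the nearer at 82672 bp. Over the list, 6 of 22 members were raised, beside 32.9% of all members and 8.57% of all regions. The members nearest to Gata4, Foxa2 and Foxq1 are shown because they lay near the start of a listed regulator and differed in the motifs they held, with the best motifs of the window in capitals where present.
Gata4, chr14:63243809-63243866: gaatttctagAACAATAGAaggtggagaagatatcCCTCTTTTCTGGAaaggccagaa
Foxa2, chr2:148037085-148037117: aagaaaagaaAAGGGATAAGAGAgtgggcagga
Foxq1, chr13:31567817-31567877: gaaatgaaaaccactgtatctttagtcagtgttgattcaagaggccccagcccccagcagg
At Gata4 both motifs were present in an intron of the gene, with scores of 8.16 for GATA6 and 8.28 for SOX17, below the member means of 9.63 and 9.94. The GATA6 stretch marked there lacks AGATAA and the SOX17 stretch lacks ACAATG on either strand. Both counted as motifs because windows were scanned at the lowest deposited scores, 6.23 for GATA6 and 7.18 for SOX17. At Foxa2 the window held a GATA6 motif (score 9.27) and no SOX17 motif, and the member was raised by Oct4 knockdown. The window near Foxq1 held neither motif. Foxa2 and Gata4 each had a GATA6 motif in the window at 5 of 5 members, whereas a SOX17 motif was present at 1 and 2 of these.

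The basement membrane genes with members were P4ha2, a collagen prolyl hydroxylase (nearest at 1774 bp), Col4a1 and Col4a2, the paired type IV collagen genes (4 and 3 members), the collagen chaperone gene Serpinh1, the laminin genes Lama1, Lamb1 and Lamc1, and Sparc, a matrix glycoprotein. The nearest members of P4ha2 and Col4a1 lay in introns of these genes, and the latter was also the nearest to Col4a2. Oct4 knockdown raised 1 of the 15 members near this list, at Lamb1, beside 32.9% of all members and 8.57% of all regions. Among endoderm products, the nearest was 1376 bp from a start of Apoa4, an apolipoprotein gene whose member was shared with Apoa1, followed by Pth1r, the parathyroid hormone receptor (3913 bp), and Rbp4, the retinol-binding protein (8971 bp). Both members near the thrombomodulin gene Thbd and 2 of 3 near Lrp2, an endocytic receptor of visceral endoderm, were raised. Over this list 6 of 19 were raised, beside the same 32.9% of all members and 8.57% of all regions. These list counts were not tested.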

How the data were processed

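The MNase-seq series comprised 18 libraries in 6 groups of 3. The deposited table lists 42403 GATA6 regions on mm10 in 105 columns, of which 30 were used. A further 59 columns hold signal of other assays that matches no library of the series, and 12 columns of motif groups and 4 of mean motif scores were not used either. The authors' reads were aligned with Bowtie2. They called peaks with MACS2 on merged replicates, clustered input-normalised log2 GATA6 signal by k-means, and took SOX17 and PTF classes from called peaks, accessibility from ATAC-seq at d0, histone states from clustered public ES data, and the Oct4 response from their differential test of read counts. The deposited motif score is the authors' FIMO log-odds score, not normalized. The deposited score columns use JASPAR matrices.

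The matrices were recovered from these scores by least squares against GRCm38.p6 (largest residual 5.20e-05, presence of a motif matched in 99.24% to 99.75% of regions), and windows reaching 100 bp to each side of the summit and control windows 3 kb away were scanned at the lowest deposited score. Of equal scores the leftmost was kept, plus strand first. Annotation was GENCODE M21. Regions were the units. The 18 Fisher tables, two-sided, were Benjamini-Hochberg adjusted as 1 family, with log2 odds ratios, 95% Woolf intervals and calls at 0.05. Within-width values are Mantel-Haenszel estimates. Means were compared by the 95% interval of their difference without a p-value, and shares have 95% Wilson intervals. All intervals cover counting error only, neighbouring regions are not independent, and the number of chromosomes with the pooled direction is given. Tests were tried on simulated tables. Alternatives were width bins, spacing, closed regions only, windows of 50 bp to each side, whole regions and other start definitions. Genes were named as the 10 most frequent nearest genes and up to 8 per list by distance, and regions shown by motif score or distance to PrE genes. A result of this naming rule is not reported here. Members and lists were chosen with earlier results of these data known. The scripts ran under Python 3.11.15 with scipy 1.17.1, pandas 2.3.3, numpy 2.4.6 and matplotlib 3.10.9.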

Additional observations from a re-analysis of the deposited data

How the results depend on the processing

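Of 126 alternatives to the 27 results, 98 kept the direction and the side of the threshold, among them all 4 for the raised share against regions without SOX17 and all 5 for the SOX17 motif against the same group. With motifs of the whole region in place of the window, log2 odds ratios against regions without SOX17 were -0.18 for GATA6 and 0.49 for OCT4:SOX2 (reversed), against naive regions -0.97 for GATA6 and -0.83 for SOX17, against constitutive regions 0.43 for GATA6 and -0.11 for SOX17 (the GATA6 values against naive and constitutive regions then passed the threshold), and 0.62 for the response split by SOX17 motif. The response value of 0.62 also passed the threshold. Score differences with these motifs were -0.24 (GATA6, without SOX17), -0.30 (GATA6, naive), 0.25 (GATA6, constitutive) and -0.09 (SOX17, naive, reversed). Within 10 width bins the values were -1.0 for closed chromatin, 0.01 for OCT4:SOX2 (reversed), -0.34 and 0.16 for the raised share against naive and constitutive regions, 0.37 and -0.03 for the response split by SOX17 and GATA6 motif (the latter reversed), and -0.56 and 0.28 for GC content against regions without SOX17 and constitutive regions. Those for closed chromatin, the response split by SOX17 motif and GC content against regions without SOX17 then passed the threshold. The 0.16 and 0.28 against constitutive regions no longer did. Without neighbours within 50 kb the values were 0.30 for the lowered share (reversed), -0.16 for the SOX17 motif against naive regions and 0.44 for GC content against constitutive regions. With windows of 50 bp to each side they were -0.16 and -0.23 for the SOX17 motif against naive and constitutive regions, 0.16 for the SOX17 score against naive regions, -0.22 for the GATA6 score and -0.37 for GC content against regions without SOX17, and 0.37 for GC content against constitutive regions. Among closed regions the SOX17 score against constitutive regions was -0.01 and GC content against regions without SOX17 was 0.02, both reversed. Promoter shares reversed to 0.04 against regions without SOX17 with starts within 2.5 kb, and to 0.52 against constitutive regions with protein-coding transcripts only. The cause of these changes was not tested.

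No paired analysis was possible because the columns used give 1 class per region and no column matches an MNase library, to which the replicate numbers belong. The signal columns of the other assays have 1 column per assay and time point or treatment, with no replicates, and were not used. The read depth behind each class was not analysed, and the precision given is that of region counts.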

Other observations

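Letter matches for other transcription factors were counted in the same summit windows, 100 bp to either side, on both strands. The forkhead core TGTTTAC was present in 8.41% of members (95% Wilson interval 7.29 to 9.70), 10.1% of Late facultative heterochromatin regions without SOX17 (8.95 to 11.3), 11.4% of naive SOX17-bound regions and 6.16% of all GATA6 regions. The letters TGANTCA, the core of AP-1 sites, were found in 14.3% of members (12.9 to 15.9), 14.1% without SOX17 and 10.7% of all regions. CATTCC, the TEAD core on one strand, was present in 15.5% of members and 18.8% of all regions, and CACCTG, an E-box, in 11.0% and 15.6%. CAAAGTCCA, a site of the HNF4 type, was present in 22 of 2044 members (1.08%, 0.712 to 1.62), 11 of 2493 regions without SOX17 (0.441%, 0.247 to 0.788) and 0.509% of all regions. It was present in 0.779% of naive SOX17-bound regions (0.446 to 1.36), whose interval overlapped that of the members, and in 1 of 691 constitutive ones (0.145%). These differences were not tested.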
